A study of Homo sapiens with 2 samples.

Results

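The genes of the cytosolic translation initiation factors (symbols starting with EIF1 to EIF6) and elongation factors (EEF1 and EEF2) were read as a group in nascent RNA of K562 cells. They were chosen by symbol alone, without read-through names that carry a hyphen and without pseudogenes, and 70 of the 36814 windows of the table were theirs. EIF4EBP1, EIF4EBP2 and EIF4EBP3, which end in P and a digit, were kept because they are genes of 4E-binding proteins. Besides the factors themselves the symbols take in kinases, binding proteins and methyltransferases that act on them. One member lies on chromosome Y and is counted here without its level.

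Initiation factors bring the ribosome, the initiator transfer RNA and the capped messenger together and find the start codon, and elongation factors then deliver aminoacyl transfer RNAs and move the ribosome along. Both steps are controlled: kinases phosphorylate eIF2 under stress, mTOR frees the cap-binding protein eIF4E from its binding proteins, and eEF2 kinase slows elongation. Many of these proteins are among the most abundant of a growing cell, and several of their messengers start with a run of pyrimidines, the terminal oligopyrimidine or TOP motif, through which mTOR controls their translation.

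The assay, PRO-seq (precision run-on sequencing), lets polymerases that are engaged on DNA add biotinylated nucleotides to their transcripts after the cells are permeabilised, and sequences the RNA so marked. K562 is an established human line from chronic myelogenous leukaemia with erythroid features. One library came from cells kept for 1 h in 0.1% dimethyl sulfoxide (DMSO), the usual solvent of drug stocks, and 1 from untreated cells. With 1 library per treatment no difference had a replicate check, and no p-value was computed.

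Each value is the number of reads in a window of 6000 bases that reaches 3000 bases to either side of a gene's annotated start on hg38. Reads in bases that 2 windows share were not counted for either: all 1154 windows that are wholly covered by others held 0 reads, 321 of them although only windows of the opposite strand covered them. Bases were thus lost across strands, so a window's count can hold reads of either strand and need not be the named gene's alone. The DMSO library held 4154920 reads and the untreated library 2136291. Outside the mitochondrial windows and 4 windows over ribosomal RNA repeats these were 2249790 and 525322 reads, because those 4 windows took 42.2% of the DMSO library and 71.5% of the untreated library. CPM values (reads scaled to the total of the library) therefore order the members within a library and do not compare the libraries. Of 11 erythroid marker windows, 9 reached 1 CPM in both libraries. The 12 neural marker windows together held 3957 reads with DMSO and 3 reads without treatment, where 9 of the 12 were at 0, and CDR1 had 2985 DMSO reads of these and 0 untreated reads. Markers read with DMSO only were named after their values were seen, so this sum follows in part from that choice. What the reads of these marker windows do to the values below was not tested.

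The first result is which of these genes the table can show. Of the 70 windows, 35 had no counted base within 500 bases of the start, against 30.0% of all windows. In 38 of the 42 member windows that shared bases, at least one of the overlapping windows lay on the opposite strand. Under 1 kb of countable bases was left to 30 members (42.9%, against 23.7% of all windows), none of which had more than 61 DMSO reads or 16 untreated reads. Of these 30, 6 reached 1 CPM in both libraries, against 8.9% of all windows so short of countable bases. In all, 41 of the 70 members (58.6%) reached 1 CPM in both libraries, against 34.7% of all windows. The 11 members at 0 in both libraries, with 5 that had no countable base at all among them, thus give no level of the gene.

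Where the start itself was countable, these genes were nearly all read. The start was free of any other window, and the RefSeq start of the gene lay within the window, for 30 members. Of these, 29 (96.7%) reached 1 CPM in both libraries, against 50.2% of all such windows, and the other, EIF3C, has a near-identical copy. Their median was 286.5 DMSO reads and 57 untreated reads, against 16 and 3 reads over all such windows. These 30 windows held 92.3% of the members' 12820 DMSO reads. The 35 members with a shared start included 9 (25.7%) at 1 CPM in both libraries, against 14.3% of all windows with a shared start. In 13 of these 35 the countable bases lay upstream of the annotated start, in 17 downstream of it, and in 5 nowhere.

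**Figure D1:**
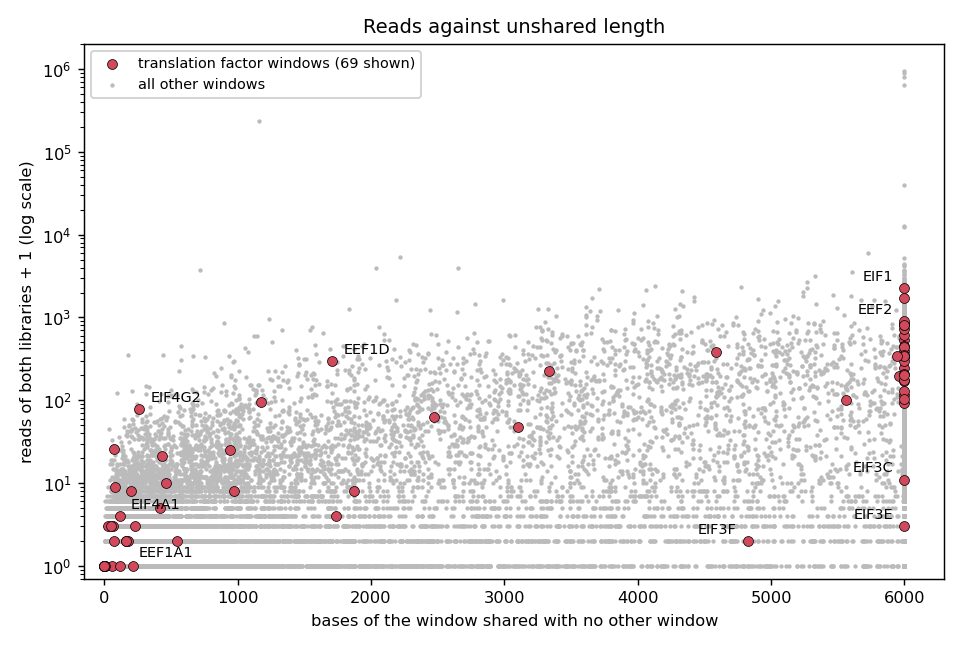
The x axis gives the bases of each window that no other window shares, and the y axis the reads of both libraries plus 1 on a log scale; red points are 69 of the 70 members and grey points all other windows. The members with 6000 unshared bases reach 2238 reads (EIF1), while the 30 members with under 1 kb of unshared bases, EEF1A1 and EIF4A1 among them, have at most 61 DMSO and 16 untreated reads.

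EIF1, the factor that keeps the scanning ribosome from starting at wrong codons, had the highest count of all members. Its window (chr17:41685885-41691884) held 1788 DMSO reads, or 430 CPM (exact Poisson 95% interval 411 to 451), and 450 untreated reads, or 211 CPM (192 to 231). It stood 43rd of all windows by mean CPM. EIF1AX, the partner of EIF1 in scanning, its relative EIF1AD, the EIF1 copy EIF1B, and EIF5 all had a shared start. EIF5, which makes eIF2 hydrolyse its GTP at the start codon, kept 1176 bases that begin 1824 bases past the annotated start, and these held 81 DMSO reads and 13 untreated reads. EIF1AX had 5 DMSO reads and 2 untreated reads, EIF1AD 2 and 0, and EIF1B 0 in both. These intervals, and all others given here for single windows or pairs of windows, cover counting error only. They take each read as an independent molecule, which reads without molecular identifiers need not be.

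For eIF2, the complex that carries the initiator transfer RNA, the windows of the beta and gamma subunit genes were countable in full. EIF2S2 (beta) had 471 DMSO reads and 138 untreated reads, and EIF2S3 (gamma) had 152 DMSO reads and 56 untreated reads. The beta subunit window thus held 3.10 times the reads of the gamma subunit window with DMSO (exact binomial 95% interval 2.58 to 3.75) and 2.46 times without treatment (1.79 to 3.43). The alpha subunit gene EIF2S1, the target of the eIF2 kinases, kept 62 bases and had 2 DMSO reads and 0 untreated reads. EIF2A and EIF2D are factors outside the complex that can also bring in initiator transfer RNA. EIF2A had 380 DMSO reads and 65 untreated reads in a window that also holds the start of SERP1, and EIF2D had 207 and 39 reads.

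EIF2S3B, a copy of EIF2S3 on chromosome 12, had 58 DMSO reads and 33 untreated reads, so that EIF2S3 held 2.62 (1.93 to 3.61) and 1.70 (1.09 to 2.69) times as many. The 2 starts are shown because they are near copies. RefSeq (GRCh38.p14) gives them at chrX:24054896-24054985 and chr12:10505830-10505919, both on the plus strand, each from 60 bases before the start to 29 bases past it. Of these 90 bases 87 are identical, and of the 300 bases around the start 282 are. Capitals mark the TOP start, searched as a C followed by 4 or more C or T that begins within 5 bases of the start.
EIF2S3: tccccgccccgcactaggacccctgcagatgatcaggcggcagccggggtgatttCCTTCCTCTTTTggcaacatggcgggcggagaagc
EIF2S3B: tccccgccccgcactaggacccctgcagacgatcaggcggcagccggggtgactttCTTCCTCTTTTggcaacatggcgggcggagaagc
How reads that match both copies were placed is not given in the sources used here, and the level of either copy is uncertain for that reason.

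The guanine nucleotide exchange factor eIF2B, which reloads eIF2 with GTP, was readable through the genes of its gamma and beta subunits. EIF2B3 (gamma) had 288 DMSO reads and 56 untreated reads, and EIF2B2 (beta) had 80 and 21 reads in 5561 countable bases. EIF2B1, EIF2B4 and EIF2B5 kept between 0 and 28 bases, with 2 DMSO reads and 0 untreated reads in EIF2B1 and 0 in the others.

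Of the 4 eIF2 kinases, EIF2AK1, the haem-regulated kinase known for matching globin synthesis to haem in red cell precursors, had the most reads. It had 327 DMSO reads and 63 untreated reads, or 78.7 CPM (70.4 to 87.7) and 29.5 CPM (22.7 to 37.7). EIF2AK4, the amino acid sensor GCN2, had 105 DMSO reads and 22 untreated reads, and EIF2AK2, the double-stranded RNA sensor PKR, had 97 and 19 reads. EIF2AK1 thus held 3.11 times the reads of EIF2AK4 with DMSO (2.49 to 3.92) and 2.86 times without treatment (1.74 to 4.89), and the order was the same in both libraries. EIF2AK4 and EIF2AK2 did not differ beyond counting error, with a ratio of 1.08 (0.814 to 1.44) with DMSO and 1.16 (0.598 to 2.26) without treatment. EIF2AK3, the endoplasmic reticulum stress kinase PERK, kept 74 bases with 1 DMSO read and 0 untreated reads, so that its level cannot be set beside the others.

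The scaffold eIF3, which binds the small ribosomal subunit, has 14 windows, of which 5 passed the floor used for ratios below (at least 5 CPM on average and 100 reads in all). EIF3A, the largest subunit, had 385 DMSO reads and 53 untreated reads, EIF3G 288 and 64, EIF3M 285 and 58, and EIF3D 143 and 25. EIF3G and EIF3M differed by less than counting error, at a ratio of 1.01 (0.855 to 1.20) with DMSO and 1.10 (0.761 to 1.60) without treatment, while EIF3A held 2.69 (2.22 to 3.29) and 2.12 (1.29 to 3.56) times the reads of EIF3D. EIF3CL, the fifth, had 251 DMSO reads and 45 untreated reads, and its near-identical partner EIF3C had 9 and 1. The deposited EIF3CL window does not hold the RefSeq start of EIF3CL, so neither value can be given to one of the copies.

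The other eIF3 windows show little of their genes. EIF3I, EIF3L, EIF3J, EIF3B, EIF3H and EIF3K kept under 1 kb each, with 13 DMSO and 7 untreated reads in EIF3I, 5 and 4 in EIF3L, 5 and 3 in EIF3J, 1 and 1 in EIF3B, 2 and 2 in EIF3H, and 7 and 0 in EIF3K. The windows of EIF3E and EIF3F do not hold the RefSeq starts of these genes, and had 2 DMSO reads and 0 untreated reads in EIF3E and 1 and 0 in EIF3F. For EIF3I, reads past the start were counted elsewhere: the opposite window of TMEM234 had 33 DMSO reads and 19 untreated reads in 432 bases that all lie within EIF3I.

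The starts of EIF3D (chr22:36529137-36529226, minus strand) and EIF3M (chr11:32583771-32583860, plus strand) are shown as examples of a TOP start in genes whose start was countable. Capitals mark the TOP start in both, and in EIF3M also the letters CCGGAAG, searched on both strands for ETS factors.
EIF3D: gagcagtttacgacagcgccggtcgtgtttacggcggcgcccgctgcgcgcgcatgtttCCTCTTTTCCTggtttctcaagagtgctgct
EIF3M: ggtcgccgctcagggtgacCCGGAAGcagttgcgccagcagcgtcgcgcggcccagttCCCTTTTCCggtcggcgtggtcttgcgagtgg

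Within eIF4F, the complex on the messenger cap, the scaffold gene EIF4G1 had 663 DMSO reads and 55 untreated reads, and EIF4H, a helper of the helicase eIF4A, had 737 and 81 reads. EIF4B, the other helper of eIF4A, had 282 DMSO reads and 63 untreated reads. The helicase and the cap-binding protein themselves were hidden: EIF4A1 had 2 DMSO reads and 1 untreated read, EIF4A2 5 and 2, and EIF4E 1 and 2. EIF4A3, the eIF4A paralog of the exon junction complex, kept 2475 bases past its start, with 53 DMSO reads and 9 untreated reads. EIF4G2, a relative of EIF4G1 that works without eIF4E, kept 263 bases at the far end of its window, and these held 61 DMSO reads and 16 untreated reads. Per countable kilobase this was 55.8 CPM with DMSO and 28.5 CPM without treatment, beside 26.6 and 4.29 CPM for EIF4G1 over all of its window. Of the remaining windows of this group, EIF4E2 and EIF4E1B were at 0 in both libraries, EIF4E3 had 1 DMSO read and 0 untreated reads, and EIF4G3 had 0 and 1.

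Bases within the hidden eIF4 genes were counted for other windows. The window of CD68, downstream of EIF4A1, had 1200 DMSO reads and 201 untreated reads in 4038 bases, 62.3% of which lie within EIF4A1 (3666 to 6181 bases past its RefSeq start). At EIF4A2, the opposite window of AC112907.3 had 116 DMSO reads and 32 untreated reads in its bases 2628 to 3602 bases past the start. At EIF4E, the opposite window of AC019131.1 had 68 DMSO reads and 20 untreated reads in 1741 bases. Which strand or gene these reads came from cannot be told apart in the counts, nor can which of the CD68 reads lie within EIF4A1.

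All 3 genes of the 4E-binding proteins, which hold eIF4E back until mTOR phosphorylates them, were countable in full. EIF4EBP3 had 628 DMSO reads and 197 untreated reads, EIF4EBP2 455 and 73, and EIF4EBP1 227 and 105. Their order differed between the libraries: EIF4EBP2 held 2.00 times the reads of EIF4EBP1 with DMSO (1.71 to 2.36) and 0.695 times without treatment (0.509 to 0.946), and neither interval holds 1. EIF4EBP3 was the highest of the 3 in both, but its window also takes in the read-through gene ANKHD1-EIF4EBP3 and the start of SRA1. EIF4ENIF1, which carries eIF4E into the nucleus, had 141 DMSO reads and 53 untreated reads, and its RefSeq start lies 2540 bases past the centre of its window.

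The starts of EIF4B (chr12:53006396-53006485) and EIF4EBP3 (chr5:140547602-140547691), both on the plus strand, are shown because both hold the E-box CACGTG, the letters that MYC and related factors bind, within 25 bases before the start. Capitals mark the E-box and, in EIF4B, the TOP start.
EIF4B: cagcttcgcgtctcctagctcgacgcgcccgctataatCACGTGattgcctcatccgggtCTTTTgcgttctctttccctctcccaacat
EIF4EBP3: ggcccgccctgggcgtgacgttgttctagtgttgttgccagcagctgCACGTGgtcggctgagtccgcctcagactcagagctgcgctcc

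EIF5B, the GTPase that joins the ribosomal subunits, had 196 DMSO reads and 29 untreated reads in 3332 countable bases, while EIF6, which keeps the large subunit from joining early, kept no base. EIF5A, which helps ribosomes through stretches such as polyproline and carries the modified residue hypusine, had 812 DMSO reads and 81 untreated reads. Its intronless copy EIF5AL1 had 84 DMSO reads and 18 untreated reads, so that EIF5A held 9.67 (7.71 to 12.2) and 4.50 (2.68 to 7.97) times as many. How reads that match both EIF5A and EIF5AL1 were placed is not given either, which leaves the level of EIF5AL1 uncertain. EIF5A2, known from testis and tumours, kept 212 bases with 0 reads in both libraries.

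EEF2, the translocase of elongation, was the second highest member. Its window (chr19:3982464-3988463) held 1440 DMSO reads, or 347 CPM (329 to 365), and 276 untreated reads, or 129 CPM (114 to 145), and the small nucleolar RNA SNORD37 lies within it. EIF1 exceeded it 1.24-fold with DMSO (1.16 to 1.33) and 1.63-fold without treatment (1.40 to 1.90). Together EIF1 and EEF2 held 25.2% of the members' DMSO reads and 27.2% of their untreated reads. EEF1G, the structural subunit of the exchange factor eEF1B, had 663 DMSO reads and 152 untreated reads in a window that also holds the start of TUT1.

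EEF1A1, which delivers aminoacyl transfer RNAs and is among the most abundant proteins of most cells, had 1 DMSO read and 0 untreated reads. Its window (chr6:73520798-73526797) shares all but 180 bases with the window of AL121972.1 on the opposite strand, and those 180 bases end 5586 bases before the RefSeq start. The 180 bases left to AL121972.1 lie 235 to 414 bases past the start of EEF1A1, and held 312 DMSO reads and 37 untreated reads. This is 417 CPM per kilobase with DMSO and 96.2 CPM per kilobase without treatment, the 7th highest mean density of the 32653 windows with at least 150 countable bases. The count near 0 listed for EEF1A1 thus comes from bases outside the gene.

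**Figure D2:**
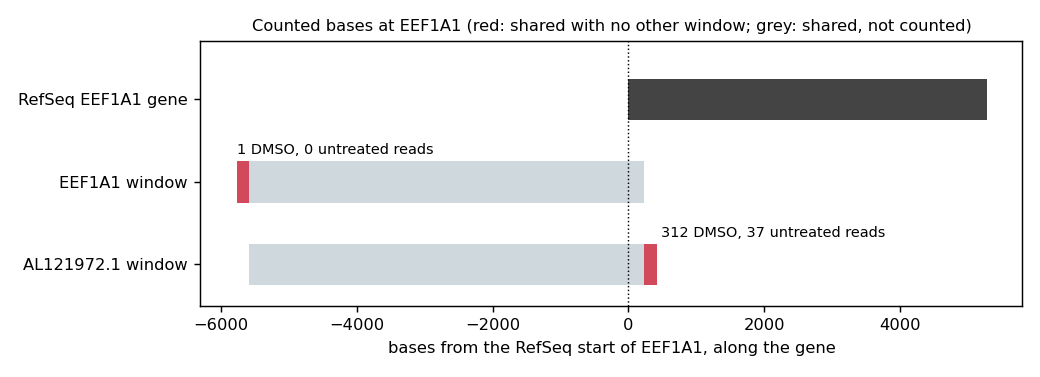
The x axis gives bases from the RefSeq start of EEF1A1 along the gene; the dark bar is the gene, grey bars the windows of EEF1A1 and AL121972.1, and red the bases of each that no other window shares. The red bases of the EEF1A1 window lie upstream of the gene and hold 1 DMSO and 0 untreated reads, and those of the AL121972.1 window lie within the gene and hold 312 and 37 reads. The counts do not tell the strand of these reads.

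The starts of EEF1A1 (chr6:73521003-73521092), EEF2 (chr19:3985434-3985523), both on the minus strand, and EIF1 (chr17:41688825-41688914, plus strand) are shown because EIF1 and EEF2 had the most reads of the group and the EEF1A1 window shares its start. Capitals mark the TOP start, and in EEF2 also the TATA box TATAAA. In EIF1 the marked run lies wholly before the RefSeq start, so the transcript from that start would not begin with it.
EEF1A1: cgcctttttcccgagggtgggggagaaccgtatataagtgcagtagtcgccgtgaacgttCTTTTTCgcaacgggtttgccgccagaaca
EEF2: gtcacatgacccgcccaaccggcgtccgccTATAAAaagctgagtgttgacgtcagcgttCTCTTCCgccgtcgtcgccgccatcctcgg
EIF1: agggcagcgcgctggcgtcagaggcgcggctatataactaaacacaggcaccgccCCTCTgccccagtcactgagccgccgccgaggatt

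EEF1A2, the eEF1A isoform known from neurons and muscle, had 43 DMSO reads and 3 untreated reads in 3101 countable bases, under the floor for ratios. The neural marker windows stood at 3957 DMSO reads and 3 untreated reads in sum (9 of 12 at 0 without treatment), with 2985 and 0 of these in CDR1. Of the 12, 5 passed the floor (CDR1, GFAP, MT3, NTRK2 and BEX3), each with 0 untreated reads and so through the DMSO library alone. Among the others, SNAP25 had 17 and 1 reads, RBFOX3 8 and 0, MBP 8 and 1, and MAP2 7 and 0. SLC1A2 had 2 and 0, STMN2 1 and 0, and SYP 0 and 1. The 5 muscle marker windows stood at 193 and 10, with 180 and 8 of these in ACTA1. What part the source of these marker reads has in the reads of EEF1A2 was not tested. EEF1D, the exchange subunit of eEF1B, had 210 DMSO reads and 85 untreated reads, but the 1711 bases counted for it lie upstream of its annotated start, and its RefSeq start lies 2126 bases downstream of that. The rest of the EEF1D window is shared with the window of TIGD5 on the opposite strand. The bases counted for EEF1D follow the downstream end of the TIGD5 window, and which gene or strand their reads came from cannot be told apart. EEF1B2, the other exchange subunit, had 17 DMSO reads and 8 untreated reads in 75 bases, and EEF1E1, a multisynthetase complex subunit, kept no base.

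Among the genes whose products modify elongation factors, EEF1AKMT1, a lysine methyltransferase of eEF1A, had 319 DMSO reads and 60 untreated reads. EEF2K, the calcium-dependent kinase of eEF2, had 163 DMSO reads and 37 untreated reads, and EEF2 held 8.83 (7.51 to 10.4) and 7.46 (5.28 to 10.8) times as many. EEF1AKNMT, listed in RefSeq as METTL13 and a methyltransferase of eEF1A, had 153 DMSO reads and 22 untreated reads. EEF2KMT, the methyltransferase of eEF2, kept 943 bases with 19 DMSO reads and 5 untreated reads. EEF1AKMT2 had 1 DMSO read and 0 untreated reads, and EEF1AKMT3 and EEF1AKMT4 were at 0 without a countable base.

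**Figure D3:**
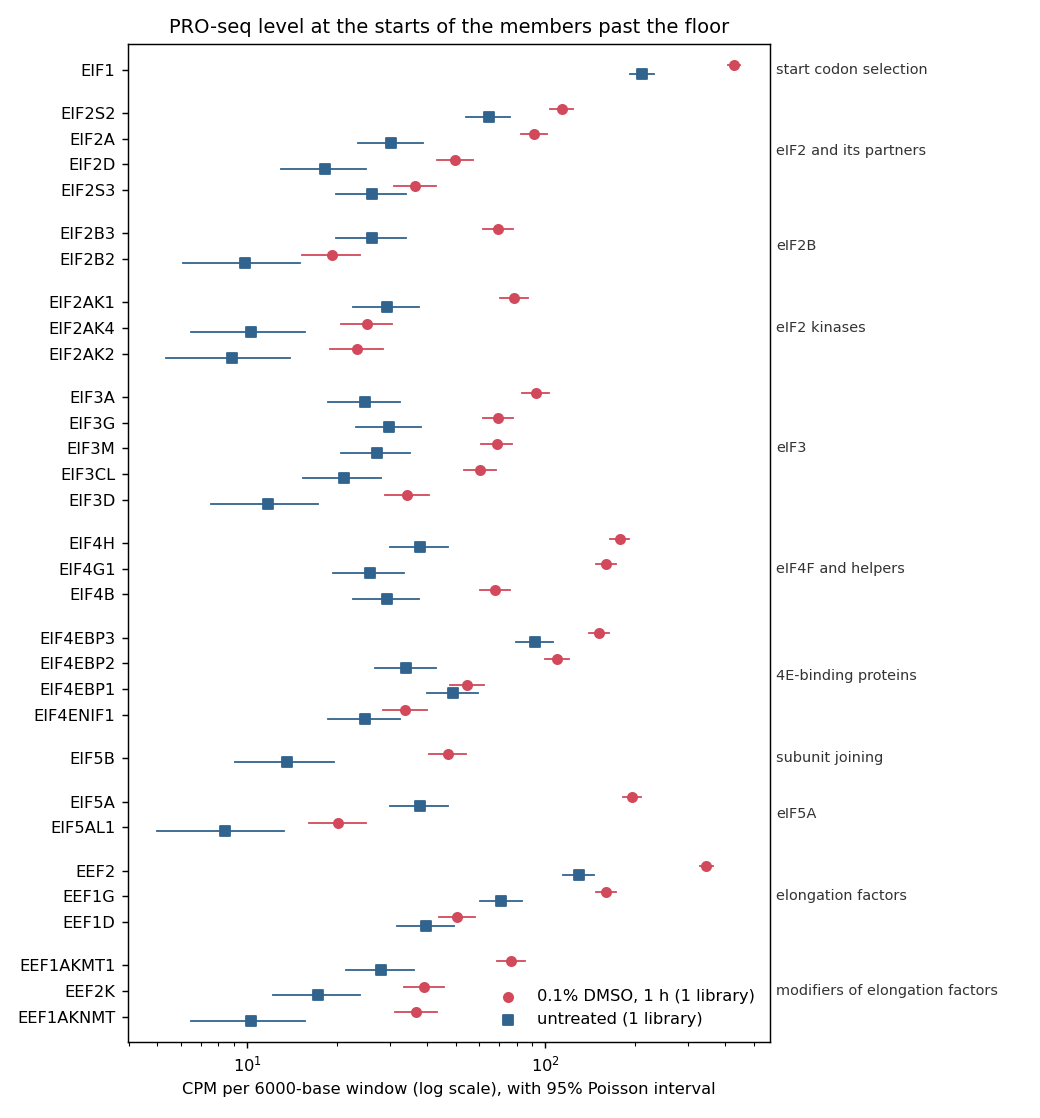
Points give the CPM of each member past the floor (log scale) with exact Poisson 95% intervals, with members grouped by role and DMSO and untreated values in separate colours. EIF1 (430 and 211 CPM) and EEF2 (347 and 129 CPM) stand at the top of both libraries; the colours are not to be compared with each other, since CPM do not compare the libraries.

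The question put to the pair of libraries was whether DMSO cells differ from untreated cells at these genes. Ratios were formed on counts scaled with edgeR's TMM factors, under which 3.81 DMSO reads stand for 1 untreated read, and are given as log2 DMSO over untreated relative to the median of the 6591 windows past the floor. In these bulk libraries, more cells of one kind and more polymerase per cell cannot be told apart. Of the 70 members 31 passed the floor (44.3%, against 17.9% of all windows). Of these, 2 (6.45%) lay at least 2-fold higher with DMSO, where 7.04% of all windows past the floor did, and 1 (3.23%) lay at least 2-fold lower, where 7.97% did. Both shares are near or under those of all windows, and 0 members had a 95% interval wholly past 2-fold in either direction (1.41% of all windows higher and 2.78% lower).

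EIF4G1 had the highest ratio of the members past the floor, 1.35 (Clopper-Pearson 95% interval 0.96 to 1.78), from its 663 DMSO reads and 55 untreated reads. EIF5A followed at 1.09 (0.76 to 1.44), from 812 DMSO reads and 81 untreated reads, and EIF4H at 0.95 (0.62 to 1.30), from 737 and 81. EIF3A had 0.62 (0.21 to 1.07) and EIF4EBP2 0.40 (0.04 to 0.78), and these 5 (16.1%) were the members with an interval wholly above the median window, which 22.5% of all windows had.

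EIF4EBP1 had the lowest ratio, -1.12 (-1.47 to -0.78), from 227 DMSO reads and 105 untreated reads. EEF1D had -0.93 (-1.30 to -0.55) in its upstream bases, EIF4ENIF1 -0.82 (-1.29 to -0.34) and EIF2S3 -0.80 (-1.25 to -0.33). EIF4EBP3 had -0.56 (-0.80 to -0.33), EIF2S2 -0.47 (-0.74 to -0.18) and EIF1 -0.25 (-0.40 to -0.10). These 7 (22.6%) had an interval wholly below the median window, as did 24.5% of all windows. These directions are relative to the median window: on library totals without centring, where that window lies at 1.27, 0 members lay 2-fold lower (0.47% of all windows past the floor) and 24 of the 31 lay 2-fold higher (66% of all windows). Among the erythroid markers, the 6 that passed the floor all lay below the median window as well, with a median of -0.49. Just under the floor, EIF5 with 94 reads over both libraries had a ratio of 0.39 and EIF2S3B with 91 reads had -1.41, and neither is counted above.

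By role, the ratios ran both ways within several groups. In the 4E-binding group 1 of 4 members past the floor lay above the median window and 3 below, with a median of -0.69. For eIF4F and its helpers 2 of 3 lay above, with a median of 0.95, and for eIF3 4 of 5, with a median of 0.24. The eIF3 median is the value of EIF3CL, whose window does not hold its RefSeq start. Of the eIF2 group 2 lay above and 2 below, and the 3 eIF2 kinases lay between 0.01 and 0.14. For the elongation factors the values were 0.15 in EEF2, -0.11 in EEF1G and -0.93 in the bases upstream of EEF1D. Their modifiers had -0.10 in EEF2K, 0.17 in EEF1AKMT1 and 0.55 in EEF1AKNMT. Over the 31 members the median was 0.11, with 18 above and 13 below the median window. The 95% order-statistic interval of this median, over genes, which are not replicates, was -0.10 to 0.24 and holds 0. Over all 59 members with any read the median was -0.28, with an interval of -0.64 to -0.08 that does not hold 0. The members' SD of 0.56 stands beside 0.82 for all windows past the floor, whose central 90% ran from -1.18 to 1.13.

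**Figure D4:**
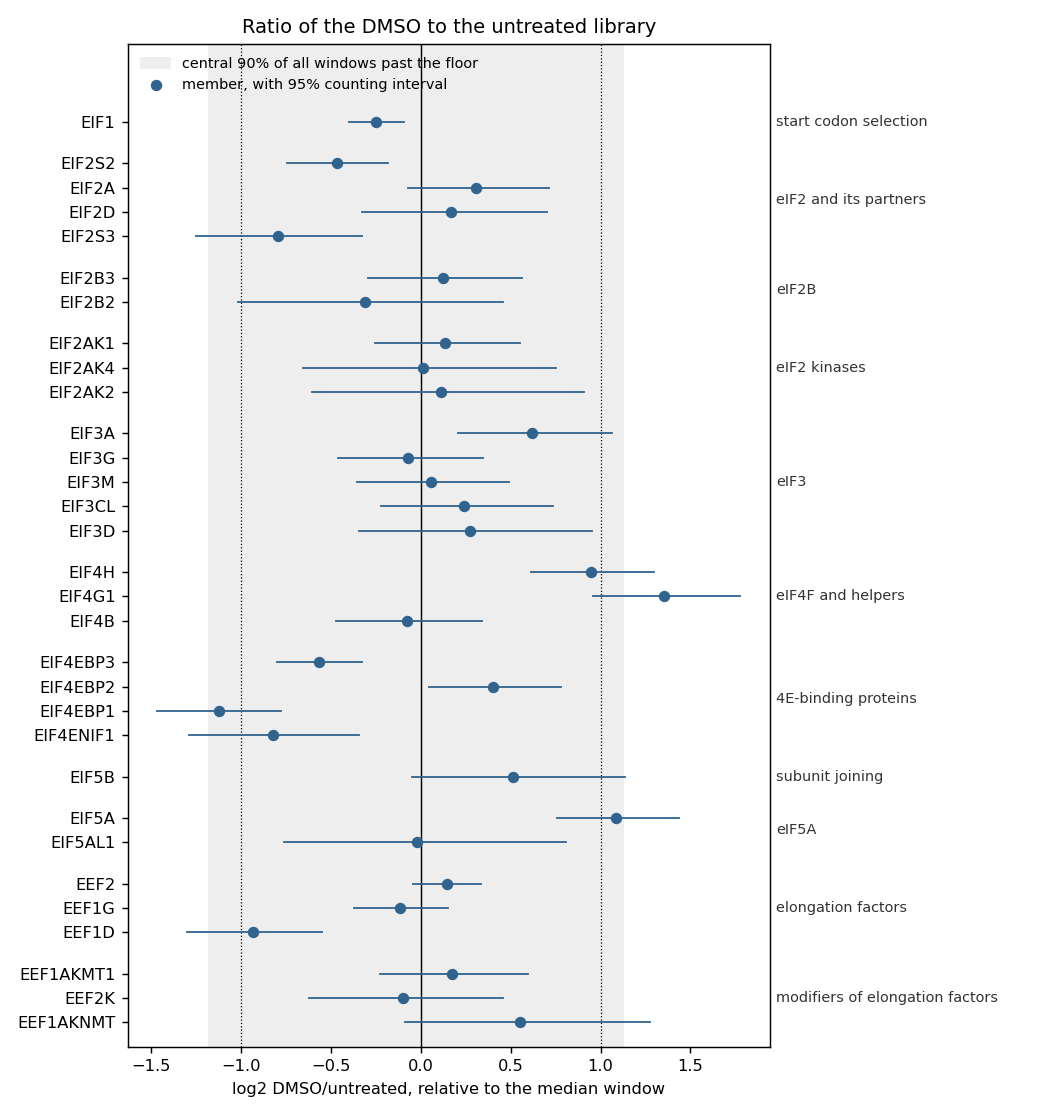
Points give the log2 DMSO/untreated ratio of the 31 members past the floor, relative to the median window, with Clopper-Pearson 95% intervals, and members are grouped by role. EIF4G1 (1.35) and EIF5A (1.09) lie past 2-fold higher and EIF4EBP1 (-1.12) past 2-fold lower, each with an interval that crosses the 2-fold line.

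Other genes of translation and its control were read in the same way. Of their 44 windows, 30 reached 1 CPM in both libraries, where 34.7% of all windows did, and 24 passed the floor, where 17.9% did. Of these 24, 0 lay past 2-fold in either direction, with a median of 0.14. Of all windows past the floor, 7.04% lay at least 2-fold higher and 7.97% at least 2-fold lower. MKNK2, a kinase of eIF4E, had 1539 DMSO reads and 172 untreated reads (0.92), and MLST8, an mTOR complex subunit, had 539 and 87 (0.39). For the poly(A)-binding proteins, PABPC1 had 1066 DMSO reads and 237 untreated reads (-0.07) and PABPC4 696 and 128 (0.20). In termination, the release factor genes ETF1 and GSPT1 had 413 DMSO and 113 untreated reads (-0.37) and 387 and 48 reads (0.77). Each of these windows was countable in full.

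PPP1R15A, the stress-induced subunit of the eIF2 phosphatase, had 509 DMSO reads and 187 untreated reads (-0.79, -1.04 to -0.54), the lowest ratio of the 24, and its constitutive counterpart PPP1R15B had 250 and 56 (-0.08). DPH7 and DPH2, of the pathway that makes the diphthamide residue of eEF2, had 789 DMSO and 154 untreated reads (0.12) and 154 and 39 reads (-0.26). DPH1, of the first step of that pathway, had 102 DMSO reads and 11 untreated reads and the highest ratio, 0.96 (0.08 to 2.02). Of the mitochondrial factors, MTRF1L had 303 DMSO reads and 101 untreated reads (-0.65) and MTIF2 155 and 34 (-0.05).

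Promoter letters were read from RefSeq for 53 members, from 250 bases before the start to 50 bases from it, and are given as a description. A TOP start was found in 19 of the 53 (35.8%), against 21.1% of all promoters, and in 10 of the 21 members past the floor that have an entry. The search also takes runs that lie wholly before the start, as in EIF1 and EEF2K. The E-box CACGTG was in 13 (24.5%, against 7.26% of all promoters), the ETS letters CCGGAAG in 14 (26.4%, against 10.3%), and the SP1 box GGGCGG in 42 (79.2%, against 45%), all on either strand. CCAAT was in 21 (39.6%, against 34.6%), GCATGCG, bound by NRF1, in 3 (5.66%, against 3.91%) and AAGATGG, bound by YY1, in 4 (7.55%, against 5.84%). TATAAA was in 3 (5.66%, against 11.5%) and TGATGCA, read by ATF4 with C/EBP proteins, in 1 (1.89%, against 2.63%).

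EIF2A (chr3:150546727-150546816, plus strand) is shown as a TOP start outside the textbook list of TOP messengers. Capitals mark the TOP start.
EIF2A: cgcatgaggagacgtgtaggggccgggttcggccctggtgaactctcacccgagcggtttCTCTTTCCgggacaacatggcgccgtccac
The textbook TOP list has 12 members here, of which 6 passed the floor: EEF2, EEF1G, EIF3A, EIF4B, EEF1D and EIF2S3. Of these, 2 lay above the median window and 4 below, with a median of -0.09, beside 0.11 for all members past the floor. EEF1D, among the 4 below, was counted only in bases upstream of its start. Of the 6, the search found a TOP start in EEF2, EIF4B and EIF2S3 and none in EEF1G. EIF3A and EEF1D have no promoter entry.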

How the data were processed

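The deposited table gave the authors' read counts of 2 PRO-seq libraries over 36814 windows of 6000 bases. The submitters' processing notes name Bowtie2 2.3.5, featureCounts 2.0.1 and the build hg38, and the strand setting is not given in the sources used here. The deposited TPM values of the authors equalled the CPM of their counts in all windows (tolerance 1e-06), because the windows have 1 length, and served only as a check. CPM, shared bases and intervals (95%, exact Poisson and Clopper-Pearson) were computed here with Python 3.11.15 and scipy 1.17.1. Counts were scaled with TMM (edgeR 4.0.16), with a prior count of 0.5 reads, over all windows. Windows passed the floor with at least 5 CPM on average and 100 reads in all. Differences were described by a 2-fold size rule against the median window, since each treatment had 1 library. On simulated data the ratio scripts were tested before use.

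The genes named were, in each role group, the 4 of highest mean CPM, those past 2-fold, those with under 1 kb of unshared bases, and paralogs, and per list of other translation genes the 2 highest. DPH1 and DMSO-only markers were named after their values were seen, as were the pairs of members whose levels are compared. Members and lists were chosen with earlier results of these data known. Promoter sequences come from RefSeq GRCh38.p14. EIF4EBP1, EIF4ENIF1, EIF2S2, EIF2AK1, EIF3A, EIF3CL, EIF3E, EIF3F, EIF3G, EIF3H, EIF3L, EEF1A2, EEF1D, EEF1AKMT1, EEF1AKMT3, EEF1AKNMT and EEF2KMT have no sequence here. Nothing says that the libraries came from separate cultures. Other scalings, floors and member sets were tried, and the closing section gives their effect.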

Additional observations from a re-analysis of the deposited data

Results flagged for a closer look

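EIF1AX-AS1, the window on the opposite strand of EIF1AX that the hyphen in its name left out of the group, had 34 DMSO reads and 7 untreated reads in 1871 bases, all of them within EIF1AX, 3000 to 4870 bases past its RefSeq start. It was singled out because these reads lie within a member gene whose own window had 5 DMSO reads and 2 untreated reads, and because 34 reads are above the 3 reads that a count of 0 allows. The strand of these reads cannot be told apart in the counts.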

How the results depend on the processing

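The median ratio of the members past the floor (0.11) and the 2 members past 2-fold higher and 1 past 2-fold lower came out alike with library totals, DESeq2 size factors, upper-quartile scaling and totals outside ribosomal RNA, all relative to the median window, with a prior of 2 reads, and with the windows that share no base (for these, 25 members past the floor). Without centring, the median was 0.42 under TMM, with 3 members higher and 0 lower (15% and 3.37% of all windows), and 1.38 with library totals, with 24 higher and 0 lower (66% and 0.47% of all windows), where the median of all windows was 0.31 and 1.27. With any read as the floor the median changed sign to -0.28 over 59 members (order-statistic interval -0.64 to -0.08). Of these members 6 lay higher and 16 lower (27.7% and 25.2% of all windows). With a floor of 1 CPM and 20 reads 39 members passed, with 4 higher and 4 lower (12.7% and 12.2% of all windows), and with 20 CPM and 400 reads 11 passed, with 1 higher and 0 lower (4.05% and 6.21%). A 1.5-fold size rule gave 4 higher and 4 lower of 31 (18.6% and 19.6% of all windows), and thinning the DMSO library left 20 members past the floor, with 1 higher and 1 lower (4.68% and 8.24%). Without the 3 names ending in P and a digit 0 were lower, since EIF4EBP1 is one of them. Of the 28 member windows that share no base, 26 (92.9%) reached 1 CPM in both libraries, against 42.1% of all such windows. Alternatives added after seeing the data were the last-named library totals without centring, the ratio with its trend over read count subtracted (1 higher and 2 lower, beside 7.54% and 6.81% of all windows), and the members without near copies or a missing RefSeq start (29 past the floor, 2 higher and 1 lower). The cause of the changes with the floor was not tested. Leaving out a replicate was not possible with 1 library per treatment. No paired analysis was possible because a single library stands for each treatment. Depth limits the ratios most where the untreated library had few reads: among members past the floor it held between 18 and 450.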
